A study of Mus musculus with 8 samples.

Results

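The genes described here are the receptors and bridging proteins through which a phagocyte takes up apoptotic cells, measured in mouse osteoclasts with and without ELMO1. Their 10 members were named by symbol from the biology of uptake, with earlier results of these data known. They were found by Ensembl identifier among the 46517 genes of the table. Gene positions given with each member are those of GRCm38 and span the whole gene. They are *Adgrb1*, *Stab1*, *Stab2*, *Timd4*, *Mertk*, *Axl*, *Tyro3*, *Gas6*, *Pros1* and *Mfge8*. Of these, 7 were expressed above a low-count filter (a normalized count, that is, a read count divided by 1 size factor per library, of at least 10 in at least 4 libraries), and *Stab2*, *Tyro3* and *Timd4* were not.

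RNA-seq was performed on osteoclasts from 4 global *Elmo1*-/- mice and 4 *Elmo1*+/- control mice, 1 library per mouse. Suspension cells of femoral marrow from mice aged 6 to 8 weeks were first grown with 10% L929 conditioned medium, which supplies M-CSF. The cells that attached were replated and grown for 7 days with 50 ng/ml GST-RANKL, the cytokine that drives osteoclast formation. The controls kept 1 intact copy of *Elmo1* although their titles read WT, and the deletion was present in every cell of the animal, so the marrow cells that gave rise to the osteoclasts lacked ELMO1 as well. The study asked which genes depend on ELMO1 in these cells.

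Dying cells expose phosphatidylserine on their surface, and phagocytes recognise it directly or through secreted bridges. Some receptors bind the lipid directly, among them BAI1 (encoded by *Adgrb1*), stabilin-1, stabilin-2 and TIM-4. The TAM receptor tyrosine kinases Tyro3, Axl and MerTK bind it through the secreted bridges Gas6 and protein S, and MFG-E8 links it to αv integrins. BAI1 binds ELMO1, which with DOCK proteins activates the small GTPase Rac and so drives engulfment, while stabilin-2 signals through the adaptor GULP. Osteoclasts arise from the same myeloid precursors as macrophages.

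*Elmo1*, the deleted gene, had normalized counts of 1528, 1423, 1769 and 1651 in the 4 *Elmo1*+/- libraries and 274, 287, 316 and 291 in the 4 *Elmo1*-/- libraries. The reduction was -2.44 on the log2 scale (SE 0.09, adjusted p = 8.4e-06, limma), and it was the only gene of 14139 tested that passed. The libraries held 20905502 to 40846651 reads on genes. They parted by their numbers rather than by genotype: the first principal component, 62.3% of the variance, separated libraries 1 and 2 of both genotypes from libraries 3 and 4. All 9 osteoclast markers were higher in the libraries numbered 3 and 4 than in those numbered 1 and 2, with a median difference of 1.18 on the log2 scale. Their summed normalized counts were 446863.6 to 685278.2 in the latter and 1020866.4 to 1161119.6 in the former. Macrophage markers, at summed counts of 315686.3 to 399491.8 across all libraries, were present throughout, and all 9 osteoclast markers lay above the filter. The summed osteoclast markers overlapped between genotypes, at 583668.2 to 1081820.7 in *Elmo1*+/- and 446863.6 to 1161119.6 in *Elmo1*-/- libraries. The study's methods place 2 mice of each genotype in each of 2 experiments but do not tie numbers to experiments, so the genotype difference of each tested member is also given within each set of libraries.

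The members spanned a wide range of abundance when set on the same length scale, as normalized count per kilobase of exon (mean ± SD, n = 8). *Stab1* at 1521 ± 554, *Gas6* at 1246 ± 806 and *Mfge8* at 1023 ± 267 stood highest. *Mertk* followed at 287 ± 60.4 and *Pros1* at 129 ± 26.5, and *Axl* at 38.3 ± 17.2 and *Adgrb1* at 27.7 ± 16.6 were lower. *Tyro3* at 1.15 ± 0.414, *Stab2* at 0.911 ± 0.429 and *Timd4* at 0.171 ± 0.241 were near the limit of detection. The 3 highest were not separated from each other, since *Stab1* exceeded *Gas6* in 6 of 8 libraries and *Gas6* exceeded *Mfge8* in 4 of 8. *Mfge8* exceeded *Mertk* by 3.56-fold, *Mertk* exceeded *Pros1* by 2.23-fold and *Pros1* exceeded *Axl* by 3.37-fold, each in 8 of 8 libraries with no overlap of their ranges. *Axl* and *Adgrb1* overlapped, and *Adgrb1* exceeded *Tyro3* by 24.2-fold in 8 of 8. *Tyro3*, *Stab2* and *Timd4* overlapped with their neighbours in the order.

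**Figure D1:**
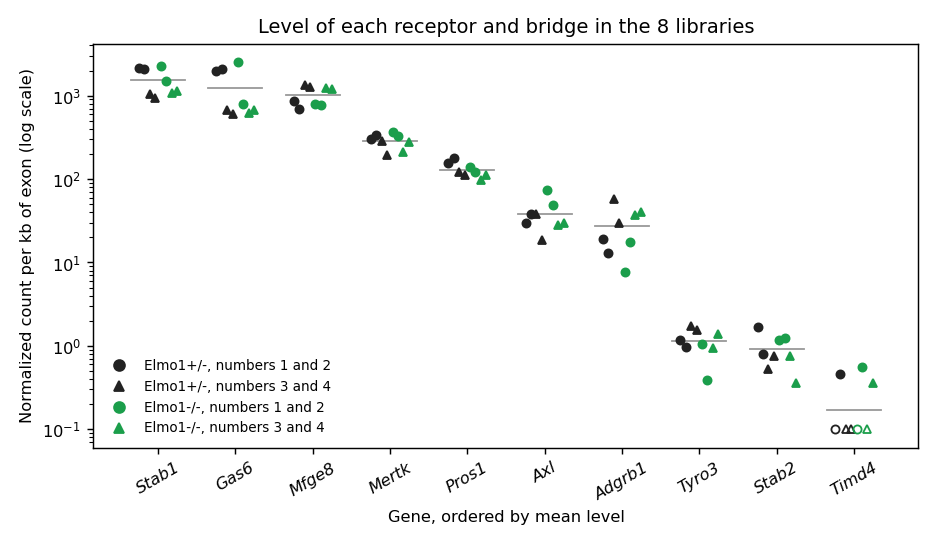
Normalized count per kilobase of exon (log axis) of the 10 members in each of the 8 libraries, by genotype and library number, with the mean over 8 as a line, and values of 0 drawn as open symbols at 0.1. *Stab1*, *Gas6* and *Mfge8* are highest, with means of 1521, 1246 and 1023, and *Tyro3*, *Stab2* and *Timd4* stand well below the rest, with means of 1.15, 0.911 and 0.171.

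The 250 bases upstream of the start of the 3 highest members are shown because these genes, all abundant here, moved in opposite directions between the library sets described below. They are from RefSeq (GRCm38.p6), 5′ to 3′ on the minus strand, on which all 3 genes lie, with E-boxes (CANNTG, which reads the same on both strands) in capitals. *Stab1* is at chr14:31168642-31168891, *Gas6* at chr8:13494536-13494785 and *Mfge8* at chr7:79149061-79149310.
Stab1: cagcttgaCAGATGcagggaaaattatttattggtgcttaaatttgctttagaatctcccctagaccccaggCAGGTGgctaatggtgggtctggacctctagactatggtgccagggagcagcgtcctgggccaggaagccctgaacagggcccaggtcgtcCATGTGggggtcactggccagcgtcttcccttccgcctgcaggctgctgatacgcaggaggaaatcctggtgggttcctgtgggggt
Gas6: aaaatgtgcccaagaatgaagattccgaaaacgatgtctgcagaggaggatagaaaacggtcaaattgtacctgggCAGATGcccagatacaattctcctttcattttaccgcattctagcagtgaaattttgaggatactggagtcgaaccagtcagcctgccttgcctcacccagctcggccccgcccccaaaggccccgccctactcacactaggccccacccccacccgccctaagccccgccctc
Mfge8: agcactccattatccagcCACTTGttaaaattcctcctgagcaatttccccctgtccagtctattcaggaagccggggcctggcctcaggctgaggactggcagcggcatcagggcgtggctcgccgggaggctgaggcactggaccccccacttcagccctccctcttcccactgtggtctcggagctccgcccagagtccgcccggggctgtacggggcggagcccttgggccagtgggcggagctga
The *Stab1* window held 3 E-boxes, and the other two held 1 each. An E-box was present in 66.2% of the 32851 promoter windows of the table, so its presence was not particular to these genes. The GC content was 57.2% for *Stab1*, 54.8% for *Gas6* and 65.2% for *Mfge8*, against a median of 52.4% over all windows. The letters GGAAA, the core that NFAT factors bind, occurred on either strand in the windows of *Stab1* (2 matches) and *Mfge8* (1 match) and not in that of *Gas6*, and in 55.6% of all windows. GAGGAA, a core of PU.1 sites that overlaps GGAAA where an A follows, occurred once in each of the *Stab1* and *Mfge8* windows and in 23.3% of all windows. TGANTCA, the AP-1 motif, occurred in none of the 3 windows and in 6.75% of all. Windows were held for 9 of the 10 members, *Adgrb1* being the exception.

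Among the receptors that bind phosphatidylserine directly, *Stab1* was by far the most abundant, and it did not pass the test for genotype. *Stab1* (ENSMUSG00000042286, chr14:31139013-31168641), which encodes the scavenger receptor stabilin-1, had normalized counts of 22132, 21279, 10677 and 9772 in *Elmo1*+/- libraries 1 to 4. The *Elmo1*-/- libraries 1 to 4 had 23247, 15363, 10979 and 11769.9. In both genotypes the libraries numbered 1 and 2 were the high ones, and the ranges of the genotypes overlapped in part, with *Elmo1*+/- libraries 3 and 4 below every *Elmo1*-/- value and *Elmo1*-/- library 1 above every *Elmo1*+/- value. The means were 15965 ± 6648 in *Elmo1*+/- and 15339.6 ± 5606 in *Elmo1*-/- mice (SD, n = 4 each), a log2 difference of -0.02 (SE 0.33, 95% interval -0.78 to 0.74, adjusted p = 0.9999, limma). The difference was -0.20 within libraries 1 and 2 and 0.15 within libraries 3 and 4. The fit, here and for each member below, had no term for the library set. Its SE and interval therefore hold the division between the sets as well as the spread between mice. *Stab1* exons overlap those of *Nt5dc2* on the other strand, which had normalized counts of 1500 to 3475. Since strand use in the counting is not given in the sources used here, a share of those reads cannot be told apart from *Stab1* reads. As these are bulk libraries, fewer cells of a type and less RNA per cell cannot be told apart either.

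*Adgrb1* (ENSMUSG00000034730, chr15:74516195-74589465), which encodes BAI1, was expressed at a low level in every library, with 59 to 378 reads. The *Elmo1*+/- libraries 1 to 4 had normalized counts of 137, 92.9, 413 and 215, and the *Elmo1*-/- libraries had 55.8, 126, 267 and 294. The order was opposite to that of *Stab1*: all libraries numbered 3 and 4 lay above all those numbered 1 and 2, and the highest was 7.39-fold above the lowest. Between genotypes the log2 difference was -0.26 (SE 0.60, 95% interval -1.61 to 1.10, adjusted p = 0.9999, limma), -0.42 within libraries 1 and 2 and -0.09 within libraries 3 and 4. The interval, which also holds the division between the library sets, included a 2-fold change in either direction. A change of that size is therefore not excluded by this fit.

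The other two direct receptors were scarcely represented. *Stab2* (ENSMUSG00000035459, chr10:86841198-87008025), the stabilin best known from sinusoidal endothelium, had normalized counts of 14.7, 6.92, 4.57 and 6.66 in the *Elmo1*+/- libraries and 10.4, 10.8, 6.68 and 3.11 in the *Elmo1*-/- libraries. These rest on 65 reads in all, 33 in *Elmo1*+/- and 32 in *Elmo1*-/- libraries. *Timd4* (ENSMUSG00000055546, chr11:46810800-46844332), which encodes the macrophage receptor TIM-4, had 1 read in the *Elmo1*+/- and 2 in the *Elmo1*-/- libraries and none in 5 of 8. A count of 0 allows up to 3 reads, or 2.33 to 4.57 normalized counts depending on the library (counting error only). *Stab1* exceeded its paralogue *Stab2* by 1214 to 3220-fold per kilobase in every library. Of the endothelial markers, 2 of 5 were above the filter, *Cdh5* at normalized counts of 22.8 to 51.8 and *Kdr* at 318 to 571.

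**Figure D2:**
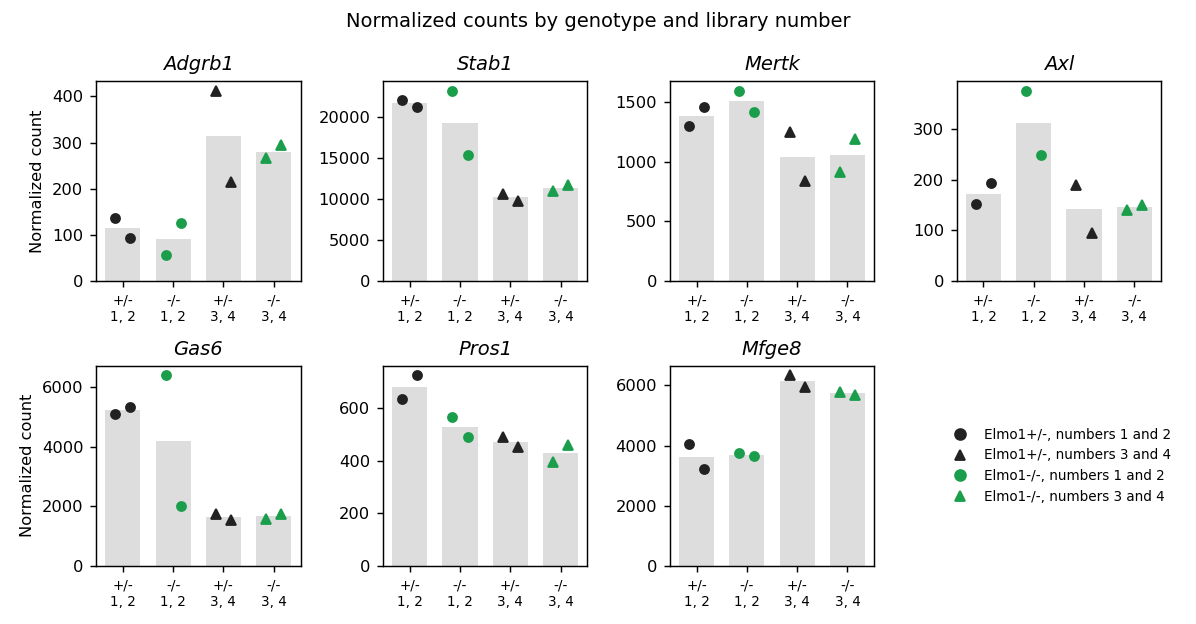
Normalized count (linear axis from 0) of the 7 members above the filter, 1 panel per gene and 1 symbol per mouse, split by genotype (+/- or -/-) and library number, with the mean of each pair of libraries as a bar. *Stab1*, *Mertk*, *Gas6* and *Pros1* are higher in libraries 1 and 2 of both genotypes, *Adgrb1* and *Mfge8* are higher in libraries 3 and 4, and *Gas6* in *Elmo1*-/- libraries 1 and 2 spans 1999 to 6397.

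Of the TAM receptors, *Mertk* was the main one at the transcript level, *Axl* was lower, and *Tyro3* was barely detected. *Mertk* (ENSMUSG00000014361, chr2:128698956-128802894), the TAM receptor that macrophages use for apoptotic cell clearance, had normalized counts of 1303, 1458, 1252 and 835 in *Elmo1*+/- libraries 1 to 4 and 1597, 1414, 916.5 and 1191 in *Elmo1*-/- libraries 1 to 4. The genotypes overlapped, and the spread was smaller than that of *Stab1* or *Gas6*. The log2 difference was 0.08 (SE 0.21, 95% interval -0.40 to 0.55, adjusted p = 0.9999, limma), with 0.12 and 0.03 within the library sets 1-2 and 3-4. *Mertk* exceeded *Axl* by 4.94 to 10.3-fold per kilobase in every library.

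*Axl* (ENSMUSG00000002602, chr7:25757273-25788705), a TAM receptor for which Gas6 is the ligand, had normalized counts of 152, 193, 190.3 and 94.2 in the *Elmo1*+/- libraries. The *Elmo1*-/- libraries had 376, 248, 140.2 and 150.1. The highest values were those of the *Elmo1*-/- libraries numbered 1 and 2, but the other two *Elmo1*-/- libraries lay within the *Elmo1*+/- range. Of the 7 members tested, *Axl* had the largest log2 difference, 0.47, with an SE of 0.35 and a 95% interval of -0.32 to 1.26. It did not pass the test (adjusted p = 0.9999, limma). The difference was 0.83 within libraries 1 and 2 and 0.11 within libraries 3 and 4, and the interaction term did not pass (adjusted p = 0.9999, limma). *Tyro3* (ENSMUSG00000027298, chr2:119797733-119818104) had 2 to 11 reads per library, with normalized counts of 7.36, 5.93, 10.7 and 9.52 in *Elmo1*+/- and 6.62, 2.40, 5.84 and 8.56 in *Elmo1*-/- libraries. These 58 reads (31 and 27 by genotype) were too few for a test.

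Of the bridges, *Gas6* and *Mfge8* were abundant and *Pros1* was lower, and *Gas6* was the most variable. *Gas6* (ENSMUSG00000031451, chr8:13465374-13494490), a vitamin K-dependent ligand of all TAM receptors, had normalized counts of 5085, 5347, 1729.8 and 1529 in *Elmo1*+/- libraries 1 to 4. The *Elmo1*-/- libraries had 6397, 1999, 1583 and 1739. The high values were those of both *Elmo1*+/- libraries numbered 1 and 2 and of the *Elmo1*-/- library numbered 1, and the remaining 5 libraries lay between 1529 and 1999. The log2 difference between genotypes was -0.26 (SE 0.56, 95% interval -1.53 to 1.01, adjusted p = 0.9999, limma). It was -0.54 within libraries 1 and 2 and 0.03 within libraries 3 and 4, and it was -0.72 without the *Elmo1*-/- library numbered 1. *Gas6* exons overlap those of *Tmem255b*, whose normalized counts were at most 0.989.

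*Pros1* (ENSMUSG00000022912, chr16:62854307-62929346) encodes protein S, the other TAM bridge, which binds MerTK and Tyro3 but not Axl. Its normalized counts were 634, 726, 491.8 and 451 in the *Elmo1*+/- libraries and 567, 492.1, 396.5 and 459.8 in the *Elmo1*-/- libraries. The *Elmo1*-/- mean of 479 ± 70.8 was below the *Elmo1*+/- mean of 576 ± 127 (SD, n = 4 each), but the values overlapped. The log2 difference was -0.25 (SE 0.17, 95% interval -0.63 to 0.13, adjusted p = 0.9999, limma), with -0.36 in libraries 1 and 2 and -0.14 in libraries 3 and 4. *Gas6* exceeded *Pros1* by 5.44 to 18.1-fold per kilobase.

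*Mfge8* (ENSMUSG00000030605, chr7:79133768-79149060), which encodes the bridge to αv integrins, had normalized counts of 4056, 3206, 6340.5 and 5958 in *Elmo1*+/- libraries 1 to 4 and 3746, 3643, 5789 and 5694 in *Elmo1*-/- libraries 1 to 4. The libraries numbered 3 and 4 were the high ones in both genotypes, and same-numbered libraries of the genotypes lay close together. The log2 difference was -0.03 (SE 0.25, 95% interval -0.60 to 0.54, adjusted p = 0.9999, limma), with 0.035 within libraries 1 and 2 and -0.098 within libraries 3 and 4.

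None of the 7 members tested passed the threshold for genotype (0 of 7 with limma, against 0.00707% of all genes tested, and 0 with edgeR and with DESeq2). At an unadjusted p under 0.05 the count was also 0 of 7, against 133 of all 14139 genes tested. With a share that low over all genes, 0 of 7 says little about the members. The genotypes overlapped for all 7, while 0.941% of all genes tested had genotypes that did not overlap. The members' median log2 difference was -0.03, against -0.0031 over all genes. A p above the threshold does not show that a gene was unaffected: the 95% intervals were narrowest for *Pros1* and *Mertk* and widest for *Adgrb1* and *Gas6*. These intervals also hold the division between the library sets.

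**Figure D3:**
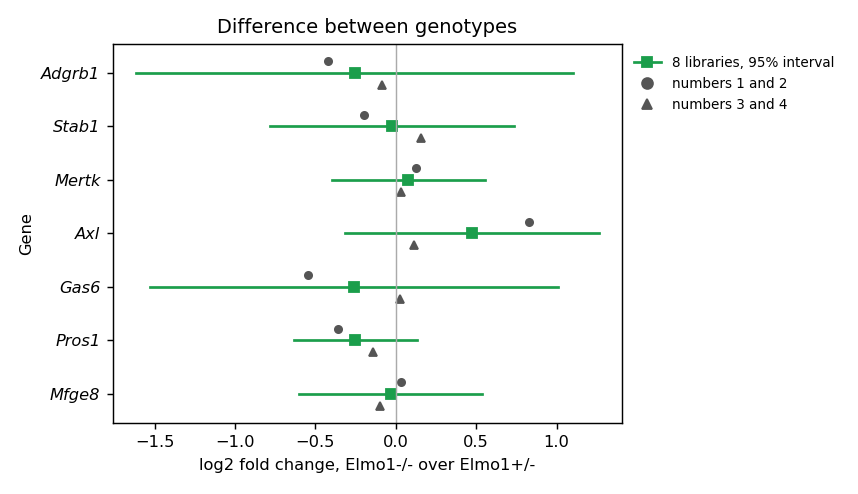
Log2 difference of *Elmo1*-/- from *Elmo1*+/- libraries for the 7 members tested, with the 95% interval of the limma fit as a bar and the differences within libraries 1 and 2 and within libraries 3 and 4 as separate symbols. Every interval includes 0, from -0.63 to 0.13 for *Pros1* to -1.61 to 1.10 for *Adgrb1*.

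The members parted by library number and not by genotype. For 6 of the 7, the 4 libraries numbered 1 and 2 and the 4 numbered 3 and 4 did not overlap, against 34% of all genes tested. This division was known from earlier results of these data and is given as a description. *Adgrb1* and *Mfge8* were higher in libraries 3 and 4 (18.1% of all genes were), and *Stab1*, *Mertk*, *Gas6* and *Pros1* were lower (15.8% of all genes were). *Gas6* averaged 4707 ± 1892 in libraries 1 and 2 and 1645 ± 105 in libraries 3 and 4 (SD, n = 4 each), a 2.86-fold difference. *Stab1* was 1.90-fold lower in libraries 3 and 4, and *Mertk* went from 1443 ± 122 to 1048 ± 204, a log2 difference of -0.48. In the other direction, *Adgrb1* was 2.89-fold higher in libraries 3 and 4 (297 ± 83.6 against 103 ± 36.5) and *Mfge8* was 1.62-fold higher (5945 ± 285 against 3663 ± 351). *Pros1* was separated by very little, with 492.1 as the lowest of the one set and 491.8 as the highest of the other. *Axl* overlapped between the sets, at a log2 difference of -0.71.

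These shifts changed the order of the members. *Mfge8* ranked first per kilobase in all 4 libraries numbered 3 and 4 and at rank 3 in all 4 numbered 1 and 2, where *Stab1* and *Gas6* stood above it. This order rests on the length used, which is the union of a gene's exons. Per kilobase of the longest transcript, the *Mfge8* mean was 2061.8, above *Stab1* at 1957 and *Gas6* at 1246, and *Mfge8* stood at rank 1 in libraries 3 and 4, at rank 2 in *Elmo1*-/- library 2 and at rank 3 in the other libraries numbered 1 and 2. The ratio of *Gas6* to *Mfge8* per kilobase was 1.01 to 3.15 in libraries 1 and 2 and 0.473 to 0.563 in libraries 3 and 4. The ratio of *Stab1* to *Adgrb1* was 85.8 to 292 in libraries 1 and 2 and 18.2 to 31.9 in libraries 3 and 4. *Ctsk*, which encodes the osteoclast protease cathepsin K, was 2.87-fold higher in libraries 3 and 4, so *Mfge8* and *Adgrb1* moved in the same direction as the osteoclast markers and the other 4 in the opposite one. Macrophage markers had a median log2 difference of -0.20, with 0 of 7 higher and 2 of 7 lower without overlap in libraries 3 and 4. They were uneven: *Mrc1* was at -1.13, *Cd163* at -0.62 and *Fcgr1*, whose sets overlapped, at -0.61. *Csf1r*, *Adgre1*, *Marco* and *Cd68* were at -0.20, -0.17, -0.04 and 0.04. The summed counts of the macrophage markers were 368599.1 to 399491.8 in libraries 1 and 2 and 315686.3 to 399259.1 in libraries 3 and 4. Most of each sum was *Marco* and *Adgre1*, at means of 192664.9 and 97959.8 over the 8 libraries. Neutrophil and granule markers (9 of 9 above the filter) had a median of -0.61. Without overlap, 0 of 9 were higher and 1 of 9, *S100a8*, was lower in libraries 3 and 4. Their sums were 13177.1 to 22646.7 in libraries 1 and 2 and 10389.1 to 13965.8 in libraries 3 and 4. Most of each sum was *S100a8*, at 8539 to 17708 over the 8 libraries. Dendritic cell markers (4 of 5) had a median of 0.51, with sums of 273.1 to 484.9 and 502.5 to 633.4 in the same order. B and T cell markers (1 of 5, *Cd79b*) had -0.80, with sums of 240.6 to 417.2 and 160.3 to 217.0. Stromal markers (4 of 7) had -0.39 with overlapping sums, and endothelial markers (2 of 5) had -0.05 with overlapping sums. The part of any of these cell types in the members' values was not tested.

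**Figure D4:**
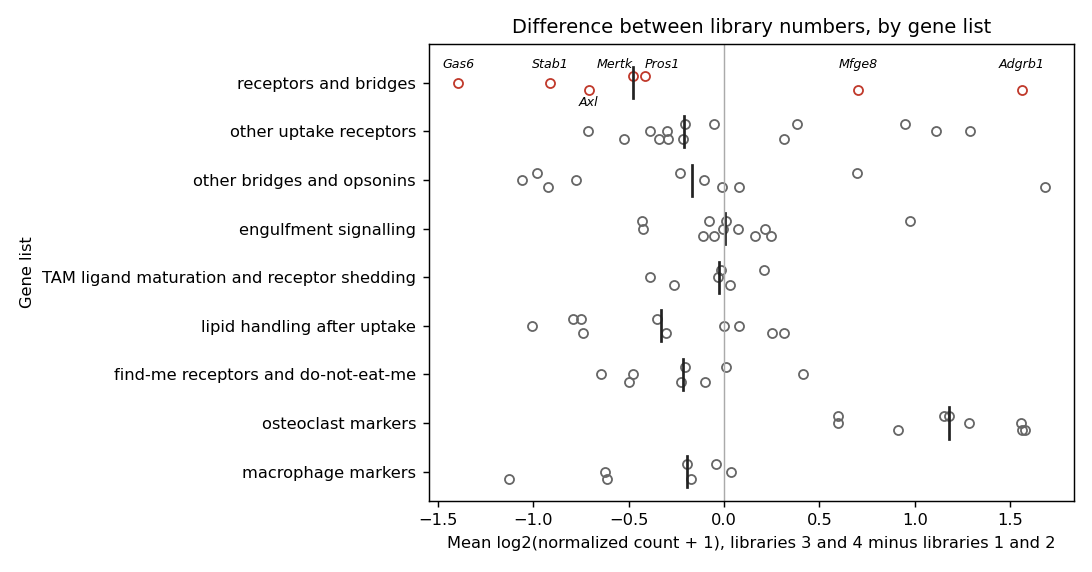
Log2 difference of the libraries numbered 3 and 4 from those numbered 1 and 2 for the 7 members tested, 6 pathway lists (*Socs1* and *Socs3* are in the TAM list) and the osteoclast and macrophage markers, 1 circle per gene tested, with the median of each list as a vertical line. *Adgrb1* (1.56) and *Mfge8* (0.70) lie on the side of the osteoclast markers (median 1.18), and *Gas6* (-1.39) and *Stab1* (-0.91) lie on the other.

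The genes whose pattern over the 8 libraries was closest to each of the 3 highest members were found by the root mean square difference of their log2 deviations from the gene mean. For *Stab1*, whose own deviations had a root mean square of 0.49, these were *Nxpe5* (0.05) and *Tnfsf9* (0.06). For *Gas6* (0.84) they were *Slc9a9* (0.10) and *Pld4* (0.20), and for *Mfge8* (0.36) *Trmt61a* (0.08) and *Chpt1* (0.09). All share the same libraries, so these likenesses are a description.

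Of the rest of the uptake machinery, *Elmo1* itself was the only gene that passed for genotype. Of 18 other uptake receptors, 14 were tested and 0 passed, with 9 higher and 5 lower by sign in *Elmo1*-/- libraries. The largest log2 difference among them was -0.17 for *Itgav*, which encodes the αv integrin chain (-0.44 within libraries 1 and 2 and 0.09 within libraries 3 and 4). The highest level per kilobase was that of *Cd14*, a receptor for lipopolysaccharide that also binds dying cells, at 9531.9 ± 1316 (SD, n = 8), and its log2 difference was 0.10. *Cd36*, a scavenger receptor, was at 7776 ± 1265. Both lay above every member.

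Of 11 other bridges and opsonins, 10 were tested and 0 passed, 7 being higher and 3 lower by sign. *Edil3*, a relative of *Mfge8*, had the largest difference at -0.34 (-0.74 within libraries 1 and 2 and 0.06 within libraries 3 and 4), and *Lgals3*, which encodes galectin-3, the highest level per kilobase at 31616 ± 4571. Of 13 engulfment signalling genes, 12 were tested and *Elmo1* fell. *Elmo3* was at 56.9 ± 4.99 normalized counts in *Elmo1*+/- and 45.3 ± 3.11 in *Elmo1*-/- libraries (SD, n = 4 each), a log2 difference of -0.32 that did not pass after adjustment. *Dock1*, *Dock2* and *Dock5*, which encode partners of ELMO proteins, had log2 differences of 0.05, 0.02 and -0.12, and *Rac2* had the highest level per kilobase of the list at 12696 ± 1132. *Gulp1*, the adaptor of stabilin-2, had 1 read in all.

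The next list held genes of TAM ligand maturation (*Ggcx*, *Vkorc1*), proteases that shed receptors (*Adam10*, *Adam17*) and the suppressors of cytokine signalling *Socs1* and *Socs3*, which neither mature the ligands nor shed the receptors. All 6 were tested and 0 passed, 5 being higher and 1 lower by sign. *Vkorc1*, which regenerates the vitamin K needed to make Gas6 and protein S, had the largest difference at 0.21, and *Adam17*, a protease that sheds MerTK, the highest level at 1222 ± 126.5 per kilobase. All 10 lipid-handling genes were tested and 0 passed, with the largest difference at -0.15 for *Mylip*, which targets the LDL receptor for degradation, and the highest level at 3157 ± 306 for *Ucp2*. Of the 8 genes of find-me and do-not-eat-me signals, all were tested and 0 passed, with the highest level at 13058.5 ± 1441 for *Sirpa*, the receptor for CD47. *Cx3cr1*, the fractalkine receptor, had the largest difference at 0.43, but this was 1.16 within libraries 1 and 2 and -0.30 within libraries 3 and 4 (adjusted p of the interaction = 0.9999, limma). *Elmo1*-/- library 2 had a normalized count of 1406, and the other 7 libraries had 403 to 778. At an unadjusted p under 0.05 the count over these 6 lists was 2, *Elmo1* and *Elmo3*, against 133 of all 14139 genes tested. Both edgeR and DESeq2 called *Elmo1* alone among the 6 lists.

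By library number, several partners of the members differed too. *Itgav* and *Itgb3* encode the chains of an integrin that MFG-E8 binds and that osteoclasts use for attachment. Both were higher in libraries 3 and 4, by 1.29 and 0.95 on the log2 scale. *Edil3*, whose product binds the same integrin, was higher by 1.68. *Itgb5*, another integrin β chain of the receptor list, went the other way at -0.29, and its library sets overlapped. *Dock5*, a Rac activator of osteoclasts, was higher by 0.98. The complement components *C1qa*, *C1qb* and *C1qc*, which opsonise dying cells, were lower, with log2 differences of -1.06, -0.98 and -0.92. *Lrp1*, a receptor for calreticulin on dying cells, was lower at -0.71, and the cholesterol exporters *Abca1* and *Abcg1*, which act after uptake, at -0.79 and -1.01. Of the 14 other receptors tested, 3 were higher and 4 lower without overlap, of the 10 bridges 2 were higher and 4 lower, and of the 10 lipid-handling genes 1 was higher and 5 lower. Of the 12 engulfment signalling genes 1 was higher and 3 lower, of the 6 genes of the TAM maturation, shedding and SOCS list 0 were higher and 2 lower, and of the 8 find-me and do-not-eat-me genes 0 were higher and 3 lower. These stand beside 18.1% and 15.8% of all genes.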

How the data were processed

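RNA-seq of osteoclasts (75 bp paired-end mRNA libraries) was analysed from 4 *Elmo1*-/- and 4 *Elmo1*+/- mice, grouped by their genotype labels. Per gene and library, the deposited table gives the authors' normalized count, a signal obtained by dividing read counts by a size factor. The submitters' processing notes name FastQC, STAR, featureCounts and DESeq2. Versions, genome build, annotation and strand setting were not given in the sources used here. Also in the deposited table is the authors' own comparison of the genotypes (fold changes, errors and p-values), which was not used. The members and lists were chosen with earlier results of these data known.

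Identifiers were matched to GENCODE mouse release 21 (GRCm38), with 46005 named and 512 not. Exon lengths came from the same annotation. The smallest step in each library turned 100% of its values into whole reads (tolerance 0.01), 20905502 to 40846651 per library. No libraries were copies of each other. Genotypes were compared with limma 3.58.1 (R 4.3.3; trend, robust) after taking log2 of the normalized count plus 1. Genes needed 10 or more in 4 or more libraries, with genotype as the only term and Benjamini-Hochberg adjustment over all 14139 genes at 0.05. Log2 differences are on this scale, *Elmo1*-/- minus *Elmo1*+/-, and understate changes of low genes.

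Deviations of same-numbered libraries of the genotypes had correlations of 0.156 to 0.704. Differently numbered libraries of the same set had 0.0259 to 0.691, so the data do not pair libraries by number. The labels do not pair them either, and a fit with the number as a block was run only as an alternative. Other alternatives were edgeR 4.0.16 and DESeq2 1.42.0 on the recovered reads, TMM and equal-total scaling, other filters and pseudocounts, leaving out each library, a term for the library set, and each set alone. The procedure was tested on simulated data of 14022 genes with 200 changed. There limma recovered 85% of changes of 1 and 97% of changes of 2 on the log2 scale. Of the genes called there, 6.67% were false with limma and 13.81% with DESeq2. In the real data the main fit had no term for the library set, so that division stayed in its residual. The SE was 0.60 for *Adgrb1* and 0.56 for *Gas6*. The simulated recovery therefore cannot be taken to hold for genes that differed between the library sets. All members are named. Of the other lists, the genes past the threshold, the one with the highest level per kilobase and the one with the largest absolute log2 difference are named. *Cd36*, *Elmo3*, *Dock1*, *Dock2*, *Dock5*, *Gulp1* and the partners of the members named by library number fall outside this rule and were chosen after their values were seen. Promoter sequences are from RefSeq.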

Additional observations from a re-analysis of the deposited data

Results flagged for a closer look

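*Gas6* in the *Elmo1*-/- libraries was the single member flagged. Library 1 had a normalized count of 6397 and the other three had 1999, 1583 and 1739, so the gap from the highest to the next took up 0.913 of the range, above Dixon's 95% critical value for 4 samples. Of 14 groups checked (7 members in each genotype), chance alone would flag about 0.7, at 1 in 20 groups. The cause was not tested.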

How the results depend on the processing

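Of 140 combinations of a tested member and an alternative, 123 kept their direction, 17 reversed and none passed the threshold, with adjusted p-values of 0.937 to 1.00. *Axl* (0.11 to 0.83) and *Pros1* (-0.36 to -0.13) kept their direction in all. On leaving out 1 library, the log2 difference ranged from -0.58 to 0.22 for *Adgrb1*, -0.24 to 0.17 for *Stab1*, -0.091 to 0.23 for *Mertk*, -0.72 to 0.034 for *Gas6* and -0.22 to 0.11 for *Mfge8*. In libraries 3 and 4 alone *Stab1* was at 0.15 and *Gas6* at 0.028, and in libraries 1 and 2 alone *Mfge8* was at 0.035. The cause was not tested. With the replicate block 1 gene passed, and that fit changed no call. The number of genes that passed was 2 with DESeq2, 2 in libraries 3 and 4 alone and 1 to 2 on leaving out 1 library (2 without *Elmo1*+/- library 2), *Elmo1* being one of them and, with DESeq2 and in libraries 3 and 4, *Gpr137b-ps* the other. The count of members above the filter was 7 under a minimum of 50 or in all 8 libraries and 9 under a minimum of 1. With the longest transcript as the length 7 of 10 members kept their place in the order of levels, and with the median over libraries 8 did. *Stab2*, *Tyro3* and *Timd4* had 65, 58 and 3 reads in all.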
